A study of Homo sapiens with 8 samples.

Results

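The genes described here are 9 transcription factors of the photoreceptor lineage (OTX2, CRX, NRL, NR2E3, RXRG, RORB, PRDM1, RAX2 and MEF2C), of 60668 genes listed in the count tables. They were found by their GENCODE symbols, and each symbol matched a single entry. The set was selected on earlier values of the contrast described below, the change in RNA level with doxycycline (DOX), so the changes of these genes are given as a description, without p-values. RNA-Seq was carried out on D283-OMO cells, a derivative of the medulloblastoma line D283 MED that carries a DOX-inducible, Flag-tagged OMOMYC transgene. OMOMYC is a dominant-negative mini-protein of MYC. The untreated group comprised 4 replicates without DOX, labelled OMO, and the treated group 4 replicates of the same cells after 72 h of DOX, labelled OMO+DOX. The transgene was brought in by lentiviral infection with hygromycin selection, so that the untreated cells carry it as well, and the sources used here do not say whether the line is a single clone. No library of DOX-treated cells without the transgene was used here, and an effect of DOX itself cannot be told apart from that of OMOMYC.

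In the developing retina, the homeodomain factor OTX2 commits precursors to the photoreceptor fate and switches on its relative CRX, which binds TAATCC sites at many photoreceptor genes. NRL, a leucine zipper protein of the MAF family, then directs the cells towards rods and switches on the nuclear receptor NR2E3, which silences cone genes. RORB acts upstream of NRL, PRDM1 keeps the cells from turning into bipolar cells, RXRG is a retinoid receptor found in cones, RAX2 is a retinal homeodomain protein, and MEF2C is a MADS-box factor best known from muscle and neurons. The photoreceptor programme is known to be active in Group 3 medulloblastoma.

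Promoters of members whose RNA moved with DOX are shown first, so that their letters can be read beside the RNA levels. RefSeq (GRCh38.p14) lists 18 windows of 300 bases, from 250 before to 50 after a transcript start, for 8 of the 9 genes, with none for RAX2. Capitals mark a match, on either strand, to any of 4 motifs, namely TAATCC (the site of OTX2 and CRX), TGCTGA (a half-site of NRL and other MAF proteins), CACGTG (the E-box of MYC and MAX) or AGGTCA (a half-site of nuclear receptors).
CRX, chr19:47821687-47821986, plus strand: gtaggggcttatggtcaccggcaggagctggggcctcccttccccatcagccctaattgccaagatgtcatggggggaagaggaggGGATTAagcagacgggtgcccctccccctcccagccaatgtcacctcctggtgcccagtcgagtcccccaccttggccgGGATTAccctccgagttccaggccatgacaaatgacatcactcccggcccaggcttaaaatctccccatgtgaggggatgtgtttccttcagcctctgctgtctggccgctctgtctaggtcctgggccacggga
NRL, chr14:24114900-24115199, minus strand: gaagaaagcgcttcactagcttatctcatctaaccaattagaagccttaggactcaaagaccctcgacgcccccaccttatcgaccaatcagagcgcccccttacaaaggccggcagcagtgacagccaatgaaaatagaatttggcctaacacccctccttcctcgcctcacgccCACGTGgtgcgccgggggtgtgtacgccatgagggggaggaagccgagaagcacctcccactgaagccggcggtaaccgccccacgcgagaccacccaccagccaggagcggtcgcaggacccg
OTX2, chr14:56810430-56810729, minus strand: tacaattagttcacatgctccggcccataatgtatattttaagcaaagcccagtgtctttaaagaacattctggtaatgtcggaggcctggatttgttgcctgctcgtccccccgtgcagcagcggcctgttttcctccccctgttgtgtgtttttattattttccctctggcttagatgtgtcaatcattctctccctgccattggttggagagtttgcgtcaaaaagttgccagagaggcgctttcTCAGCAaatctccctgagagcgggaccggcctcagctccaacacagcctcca
RXRG, chr1:165445077-165445376, minus strand: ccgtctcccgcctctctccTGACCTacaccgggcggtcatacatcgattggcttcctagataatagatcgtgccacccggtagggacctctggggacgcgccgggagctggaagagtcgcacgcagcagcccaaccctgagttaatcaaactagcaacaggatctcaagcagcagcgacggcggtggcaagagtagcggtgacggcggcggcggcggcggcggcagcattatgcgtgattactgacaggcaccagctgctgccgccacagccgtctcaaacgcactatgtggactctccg
MEF2C, chr5:88883135-88883434, minus strand: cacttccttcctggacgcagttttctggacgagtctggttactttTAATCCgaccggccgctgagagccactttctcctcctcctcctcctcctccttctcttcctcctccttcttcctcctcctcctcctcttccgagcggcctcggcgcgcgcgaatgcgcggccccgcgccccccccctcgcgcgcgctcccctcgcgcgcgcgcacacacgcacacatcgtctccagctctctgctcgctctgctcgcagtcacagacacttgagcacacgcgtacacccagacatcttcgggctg

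The CRX window held 2 matches to TAATCC, 164 and 85 bases before the start. Of all 35116 promoter windows in the table, 6.36% had at least 1 match to this motif and 0.41% had 2 or more. The NRL window at the distal start held CACGTG 74 bases before the start, a motif present in 7.26% of all windows. The other NRL window, around a start inside the gene, held none of the motifs. OTX2 had a TGCTGA match 2 bases before its distal start, against 17.3% of all windows. RXRG had an AGGTCA match 231 bases before its start, against 13.8% of all windows. The second OTX2 window held none of the motifs. Of the 7 windows of MEF2C, the printed one held TAATCC 205 bases before the start, against the 6.36% of all windows given above, 4 others held TGCTGA or AGGTCA and 2 held none. RORB, not printed, had TGCTGA in 1 of its 2 windows. The printed windows were picked because they hold a match, and 7 of the 18 windows hold none. These matches describe letters, and no binding was measured.

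The libraries held between 38390696 and 54020506 counts, and 15222 genes with over 1 CPM (a count scaled to the size of its library) in 4 or more of the 8 libraries were tested. At an adjusted p below 0.05 (edgeR's quasi-likelihood test, Benjamini-Hochberg adjustment over all genes tested), 76.6% of them changed with DOX, 38.5% being higher and 38.1% lower. With limits of 0.001 on the FDR and of 2 on the size of the log2FC, here called differentially expressed, the share was 7.12%, made up of 4.38% higher and 2.75% lower. In 71.7% of the genes tested, no untreated library overlapped with a DOX-treated one. The MYC targets CAD and NCL, read as a check of the treatment, had a log2FC of -0.48 (SE 0.05, adjusted p = 1.33e-06) and -0.44 (SE 0.04, adjusted p = 1.23e-06). MYC stood at 939 ± 75.6 CPM (SD, n = 4) without and 1123 ± 56.8 CPM with DOX, values in which reads from the MYC-derived transgene may be included. A lower CPM cannot tell less RNA per cell from fewer cells that express a gene. Levels below are in CPM scaled with edgeR's TMM factors.

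In untreated D283-OMO cells the factors spanned a wide range of levels, with OTX2 at the top, and most of them were lower with DOX. Of the 9 genes, 6 passed the filter on low counts, and 6 of these 6 had an adjusted p below 0.05, 4 lower (OTX2, CRX, NRL and RXRG) and 2 higher (RORB and MEF2C). CRX, NRL and RXRG were differentially expressed downwards and MEF2C upwards. NR2E3, PRDM1 and RAX2 stayed below the filter, and RXRG passed it through the untreated libraries alone. In 9 of the 9 genes the untreated and DOX-treated libraries did not overlap. Since the genes were picked with these changes known, nothing is read from these counts beside the shares of all genes given above.

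**Figure D1:**
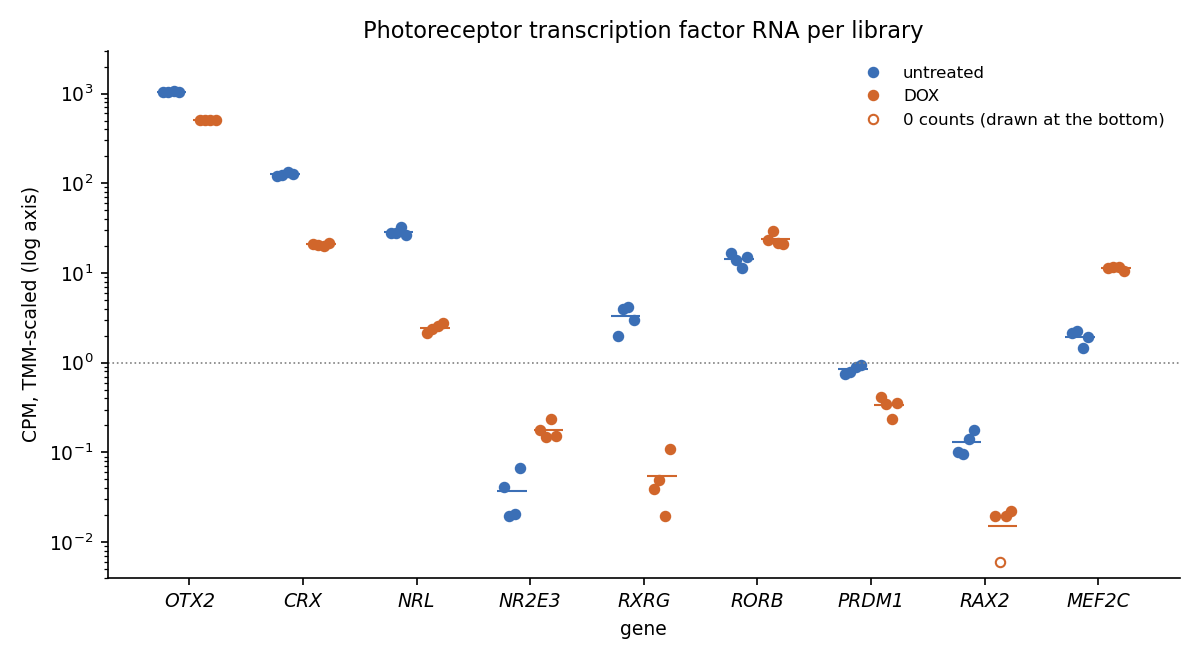
CPM of the 9 factors in each library on a log axis, with points for the 4 untreated and 4 DOX-treated libraries, lines at the group means and a dotted line at 1 CPM. The groups are apart for each gene, and the open point is the DOX-treated library without a RAX2 count.

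OTX2 (ENSG00000165588.17, chr14:56799905-56810479, minus strand of GRCh38), the factor that starts photoreceptor fate, had 1029, 1048, 1071 and 1046 CPM in untreated replicates 1 to 4 and 512, 508, 509 and 510.2 CPM in the DOX-treated ones. The replicates lay close together in both groups, and OTX2 had the lowest coefficient of variation of the 9 members in each. The mean fell from 1049 ± 17.4 CPM (SD, n = 4) to 509.7 ± 1.79 CPM, which left 48.6% of the untreated level (log2FC -1.04, SE 0.04). By mean CPM, OTX2 was number 105 of the 15222 genes tested in untreated cells and number 212 with DOX.

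CRX (ENSG00000105392.16, chr19:47819779-47843330, plus strand), which acts on the genes of the mature photoreceptor, gave 121, 123, 135 and 125 CPM in the untreated replicates and 21.2, 20.6, 20.2 and 21.9 CPM with DOX. Untreated replicate 3 was the highest of its group, and the DOX-treated replicates differed little. The means were 126 ± 6.23 and 21.0 ± 0.718 CPM (SD, n = 4 each), 6.02-fold lower with DOX (log2FC -2.59, SE 0.05). By size of the fall, CRX was number 216 of the genes tested.

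NRL (ENSG00000129535.12, chr14:24080107-24115014, minus strand), the rod factor, stood at 27.9, 28.1, 32.2 and 26.5 CPM in the untreated replicates. With DOX it stood at 2.13, 2.37, 2.54 and 2.75 CPM. All 4 DOX-treated libraries were thus far below the lowest untreated one. The mean went from 28.7 ± 2.48 to 2.45 ± 0.264 CPM (SD, n = 4 each), 11.7-fold lower (log2FC -3.55, SE 0.09) and the number 65 fall of all genes tested. RSEM, which divides reads that match several genes, gave NRL a count that is not whole in 8 of 8 libraries. The same held for MEF2C in 8 libraries and for CRX in 4. On the other strand, PCK2 lies within the span of NRL with 0 shared exonic bases, and DCAF11 shares 293. Their log2FC were -1.10 (SE 0.06, adjusted p = 1.97e-08) and -0.25 (SE 0.05, adjusted p = 0.000511), and whether counting used the strand is not given in the sources used here.

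The levels of OTX2, CRX and NRL can be compared within each library, as ratios of counts that need no scaling between libraries. Per 100 counts of OTX2, the untreated libraries had 11.8, 11.7, 12.6 and 12 counts of CRX and the DOX-treated ones 4.14, 4.05, 3.98 and 4.28. The ratio was lower in each DOX-treated library than in any untreated one, with means of 12.03 ± 0.408 and 4.11 ± 0.133 (SD, n = 4 each). Per 100 counts of CRX there were 23.0, 22.9, 23.8 and 21.1 counts of NRL without DOX and 10.0, 11.5, 12.5 and 12.5 with DOX. The means of this ratio were 22.7 ± 1.15 and 11.6 ± 1.20, so that NRL was lowered more than CRX, and CRX more than OTX2, in relative terms. These ratios rest on the values that chose the genes and were not tested.

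**Figure D2:**
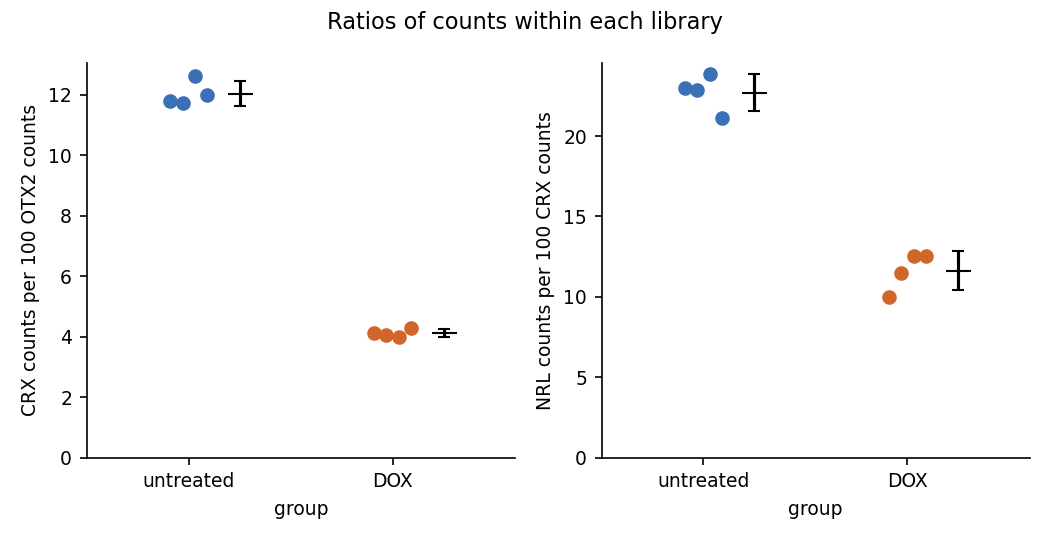
Counts of CRX per 100 counts of OTX2 and of NRL per 100 counts of CRX in each library, with the mean and SD of 4 libraries. Both ratios are lower in the 4 DOX-treated libraries, from 12.03 to 4.11 and from 22.7 to 11.6 on average.

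RXRG (ENSG00000143171.13, chr1:165400917-165445355, minus strand), the retinoid X receptor of cones, had the largest fitted fall of the 6 members that passed the filter. Its untreated replicates had 2.0, 3.95, 4.23 and 3.003 CPM, from 98, 204, 208 and 134 counts. The DOX-treated replicates had 2, 2, 1 and 5 counts. RXRG was thus near the limit of detection with DOX, while untreated replicate 1 had the lowest level of its group. The means were 3.29 ± 1.01 and 0.0547 ± 0.0390 CPM (SD, n = 4 each). Summed over libraries, 644 against 10 counts gave a level 62.1-fold lower with DOX, with a 95% exact interval of 33.5 to 130.0 that covers counting error only. The fitted log2FC was -5.88 (SE 0.40), the number 3 fall among all genes tested.

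RORB and MEF2C went the other way. RORB (ENSG00000198963.11, chr9:74497365-74693177, plus strand), an orphan receptor that acts before NRL in the rod pathway, had 16.8, 14.01, 11.4 and 14.97 CPM without and 23.2, 29.5, 21.8 and 21.0 CPM with DOX. The replicates were more scattered than those of OTX2 or CRX, with coefficients of variation of 15.8% and 16.2%. The means of 14.3 ± 2.25 and 23.9 ± 3.87 CPM (SD, n = 4 each) were 1.67-fold apart (log2FC 0.74, SE 0.13).

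MEF2C (ENSG00000081189.15, chr5:88717117-88904257, minus strand) had 2.16, 2.26, 1.44 and 1.95 CPM in the untreated replicates and 11.4, 11.7, 11.7 and 10.6 CPM in the DOX-treated ones. The DOX-treated libraries were at a similar level, several times that of the untreated ones. The means of 1.96 ± 0.365 and 11.4 ± 0.524 CPM (SD, n = 4 each) gave a level 5.80-fold higher (log2FC 2.54, SE 0.12), the number 486 rise of the genes tested. The antisense genes MEF2C-AS1 and MEF2C-AS2 share 422 and 208 exonic bases with MEF2C, and with DOX they stood at 0.274 and 0.0236 CPM.

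**Figure D3:**
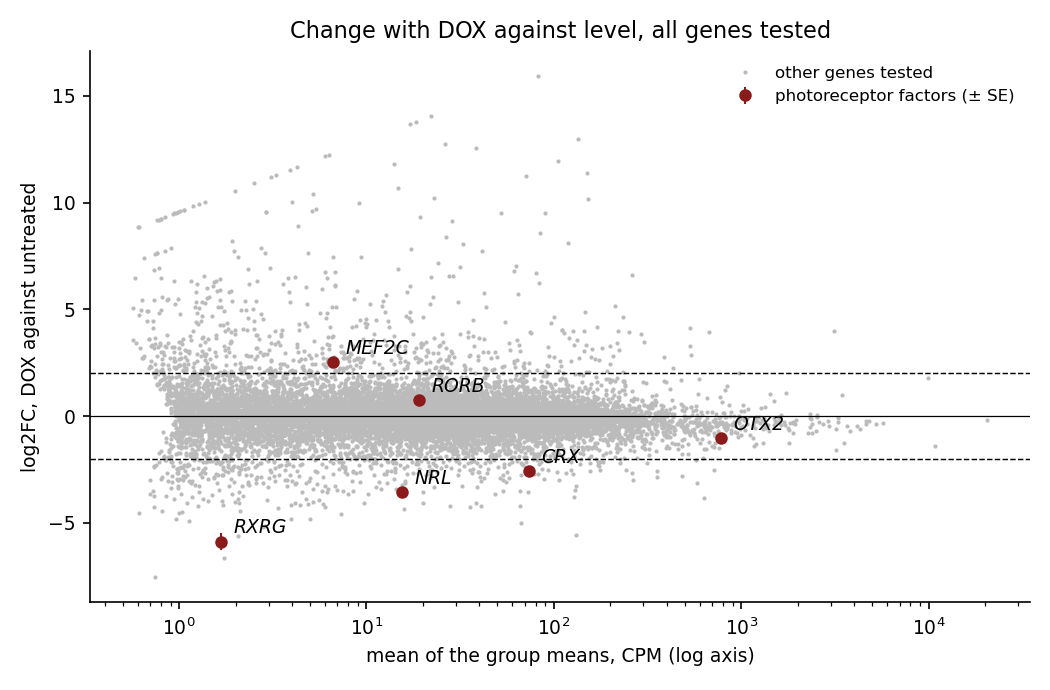
Log2FC of the 15222 genes tested against their mean level in CPM on a log axis, with the 6 factors that passed the filter in colour and bars for the SE. Dashed lines mark a log2FC of 2 and -2, and OTX2 (-1.04) and RORB (0.74) lie between them.

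The remaining members had few reads, and the intervals given for them cover counting error only, not the spread of the replicates. PRDM1 (ENSG00000057657.17, chr6:106086320-106109939, plus strand), the zinc finger repressor also called BLIMP1, had 0.755, 0.793, 0.894 and 0.941 CPM without and 0.414, 0.349, 0.235 and 0.352 CPM with DOX. Each DOX-treated library was below each untreated one, and 164 against 63 counts gave a level 2.51-fold lower with DOX (95% exact interval 1.87 to 3.41). RAX2 (ENSG00000173976.15, chr19:3769089-3772221, minus strand) had 5, 5, 7 and 8 counts in the untreated libraries and 1, 0, 1 and 1 in the DOX-treated ones. The sums of 25 and 3 counts gave a level 8.03-fold lower, with an interval of 2.45 to 41.6. NR2E3 (ENSG00000278570.5, chr15:71792638-71818259, plus strand), the receptor that NRL switches on in rods, had 2, 1, 1 and 3 counts without DOX and 9, 6, 12 and 7 with DOX. Its sums of 7 and 34 counts gave a level 5.04-fold higher with DOX (95% exact interval 2.20 to 13.5), at means of 0.0369 ± 0.0225 and 0.179 ± 0.0391 CPM (SD, n = 4 each). NR2E3 was thus barely detected in either group, and its direction was opposite to that of NRL.

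To compare levels between genes, CPM were divided by the length of all annotated exons in kilobases (kb). In untreated cells the order was OTX2 with 320.5 ± 5.31 CPM per kb, CRX with 21.1 ± 1.04, NRL with 9.21 ± 0.797, RORB with 1.49 ± 0.234 and RXRG with 1.22 ± 0.375 (SD, n = 4 each). MEF2C with 0.166 ± 0.0311 CPM per kb, PRDM1 with 0.132 ± 0.0135, RAX2 with 0.0539 ± 0.0160 and NR2E3 with 0.0114 ± 0.00693 followed. The libraries of neighbours in this order overlapped for RORB and RXRG and for MEF2C and PRDM1. Per kb, the mean level of OTX2 was 15.2 times that of CRX and 34.8 times that of NRL.

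With DOX the order became OTX2 with 156 ± 0.546 CPM per kb, CRX with 3.50 ± 0.120, RORB with 2.49 ± 0.404, MEF2C with 0.967 ± 0.0446 and NRL with 0.786 ± 0.0848 (SD, n = 4 each). NR2E3 with 0.0552 ± 0.0120 CPM per kb, PRDM1 with 0.0528 ± 0.0117, RXRG with 0.0203 ± 0.0145 and RAX2 with 0.00635 ± 0.00426 followed, and neighbours among these 4 overlapped. RORB and MEF2C thus stood above NRL, and OTX2 was at 44.5 times the level of CRX and 198 times that of NRL.

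Most of the factors belong to families whose other members bind like sequences, and several of these paralogs moved differently. OTX1, the near relative of OTX2, had a log2FC of -0.22 (SE 0.08, adjusted p = 0.0329), a call lost in 3 of the 8 fits with a library left out and with scaling to library size. In the MAF family, NRL was lower while the large members MAF and MAFA and the small members MAFF, MAFG and MAFK rose. MAF went from 0.0308 to 1.44 CPM (log2FC 5.44, SE 0.35, adjusted p = 4.32e-08), MAFA from 0.242 to 2.02 CPM (log2FC 3.04, SE 0.19, adjusted p = 3.29e-08) and MAFG from 84.4 to 125 CPM (log2FC 0.57, SE 0.05, adjusted p = 6.26e-07). Among the retinoid X receptors, RXRA fell (log2FC -0.66, SE 0.04, adjusted p = 6.98e-08), and RXRB had a log2FC of 0.14 (SE 0.05, adjusted p = 0.0370) whose call was lost in 6 of the 8 fits with a library left out. RXRG contributed 4.45% of RXR RNA per kb without and 0.0837% with DOX.

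RORA, a paralog of RORB, rose (log2FC 0.90, SE 0.16, adjusted p = 0.000275). In the MEF2 family, MEF2A went from 57.8 ± 4.32 to 1013 ± 48.8 CPM (SD, n = 4 each), with a log2FC of 4.13 (SE 0.07, adjusted p = 5.42e-13). MEF2D, which works with CRX in photoreceptors, fell (log2FC -0.46, SE 0.05, adjusted p = 4.12e-06), and MEF2B had a log2FC of -0.01 (SE 0.39) whose sign turned with scaling to library size. MEF2D supplied 74.8% of MEF2 RNA per kb in untreated cells, and MEF2A 86.5% with DOX. MEF2C made up 0.436% and 0.572%. NR2E1, the relative of NR2E3 in retinal progenitors, stood at 4.06 and 4.18 CPM (log2FC 0.04, SE 0.11). Of 20 listed paralogs, 16 were tested, 10 were higher, 4 lower and 2 not called, beside 38.5% higher and 38.1% lower of all genes tested. Their median log2FC was 0.47, against 0.01 over all genes tested. MAF and MAFA passed the filter through the DOX-treated libraries alone and so had to be higher. The counts and the median are thus no measure of how much of this list rose. With more than 1 CPM asked for in more than 4 libraries, 8 were higher and 4 lower.

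**Figure D4:**
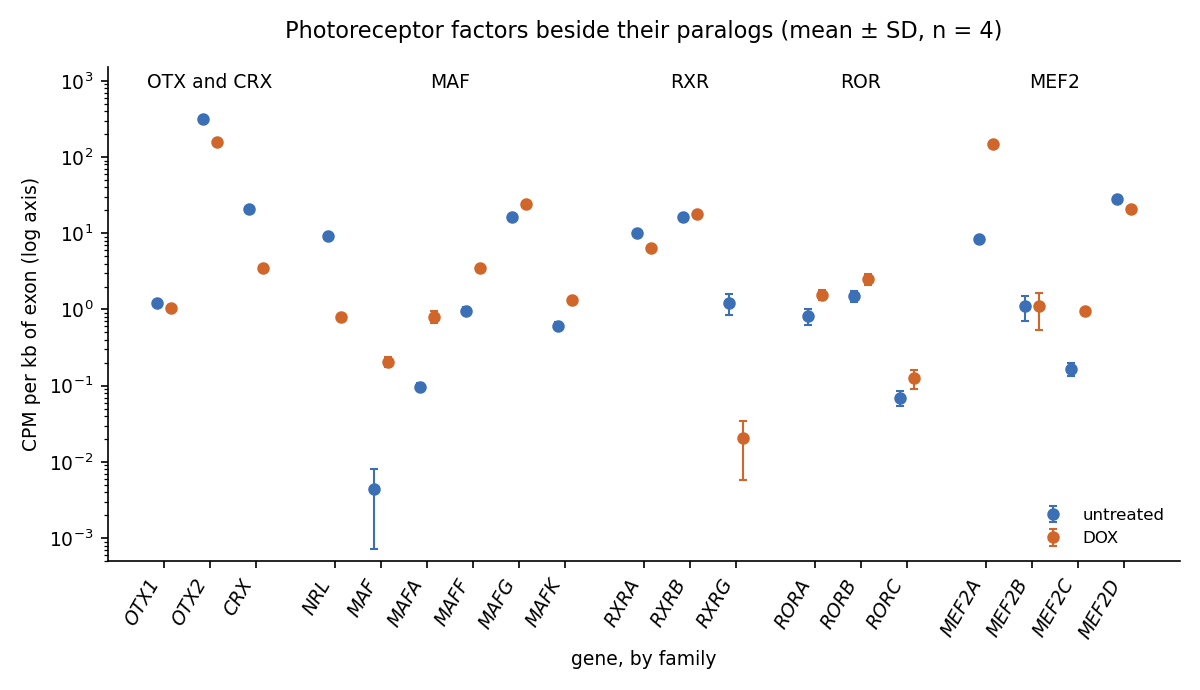
Mean CPM per kb of exon on a log axis, with the SD of 4 libraries, of the factors and their paralogs without and with DOX. NRL drops from 9.21 to 0.786 while the other MAF genes shown rise, and MEF2A goes from 8.35 to 146.

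Genes of the photoreceptor programme were read next, and whether the factors control them in these cells was not tested. The lists were drawn up with earlier results of these data known, and their counts stand beside the shares of all genes given above. A gene that passed the filter through the untreated libraries alone, with no DOX-treated library above 1 CPM, had to be lower. The counts and medians are thus no measure of how much of a list fell. Of 19 genes of rod phototransduction, 10 were tested, of which 8 were lower, 1 was higher and 1 was not called, with a median log2FC of -1.64. Of those lower, 2 (GRK1 and PDE6A) passed through the untreated libraries alone, and with more than 1 CPM asked for in more than 4 libraries 6 were lower. Large falls were those of GRK1, a receptor kinase of rods (5.59 to 0.153 CPM, log2FC -5.15, SE 0.20, adjusted p = 6.30e-10), of GUCA1A, a calcium sensor of guanylate cyclase (130.4 to 3.97 CPM, log2FC -5.03, SE 0.13, adjusted p = 2.22e-11), and of PDE6A, a catalytic subunit of the rod phosphodiesterase (9.26 to 0.523 CPM, log2FC -4.13, SE 0.11, adjusted p = 1.89e-11). PDE6B, the other catalytic subunit, rose from 10.0 to 13.8 CPM (log2FC 0.46, SE 0.07, adjusted p = 7.29e-05).

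Of 14 cone phototransduction genes, 5 were tested and 5 of the 5 were lower, with a median log2FC of -3.27. CNGB3, GNGT2 and SLC24A2 (3 of the 5) passed through the untreated libraries alone, and 2 were left with the stricter filter. The genes that were lower include the cone phosphodiesterase subunit PDE6H (58.6 to 6.07 CPM, log2FC -3.27, SE 0.09, adjusted p = 2.77e-11), the channel subunit CNGB3 (log2FC -4.05, SE 0.23, adjusted p = 1.66e-08) and the transducin subunit GNGT2 (log2FC -3.29, SE 0.18, adjusted p = 9.84e-09). The cone opsin genes OPN1SW and OPN1MW had 0 counts over the untreated and 1 each over the DOX-treated libraries. Among 20 genes of the outer segment and of retinoid handling, 14 were tested, 12 were lower and 2 higher, with a median log2FC of -1.49. AIPL1, IMPG1 and MAK passed through the untreated libraries alone and FSCN2 through the DOX-treated ones, and 9 lower and 1 higher were left with the stricter filter. The photoreceptor cadherin CDHR1 went from 1176 to 83.1 CPM (log2FC -3.82, SE 0.06, adjusted p = 6.28e-13), AIPL1, a chaperone of the phosphodiesterase, fell (log2FC -3.05, SE 0.19, adjusted p = 4.11e-08), and so did RP1L1, a protein of the axoneme (log2FC -3.02, SE 0.10, adjusted p = 2.33e-10). FSCN2, a retinal actin bundler, rose (log2FC 2.22, SE 0.13, adjusted p = 1.58e-08), and EYS had a log2FC of 0.23 (SE 0.09, adjusted p = 0.0460), a call lost in 7 of the 8 fits with a library left out.

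Other regulators of photoreceptor genes were divided. Of 16 listed, 11 were tested, 5 were higher, 5 lower and 1 was not called, with a median log2FC of 0.04. NEUROD1, a proneural factor that maintains photoreceptors, fell from 94.4 to 20.2 CPM (log2FC -2.23, SE 0.05, adjusted p = 6.09e-12) and was the one gene of this list that was differentially expressed. THRB, the thyroid hormone receptor of cones, rose (log2FC 1.88, SE 0.12, adjusted p = 5.30e-08), as did SAMD11 (log2FC 1.38, SE 0.07, adjusted p = 4.73e-09) and PIAS3 (log2FC 1.10, SE 0.05, adjusted p = 1.17e-09). Of 12 regulators of the eye field and of retinal progenitors, 8 were tested, 3 were higher, 3 lower and 2 not called, with a median log2FC of -0.07. Differentially expressed were 2 upwards, both named below, and 1 downwards. PAX6 passed the filter through the DOX-treated libraries alone and so had to be higher. PAX6, a master gene of the eye, went from 0.154 to 52.9 CPM (log2FC 8.40, SE 0.12, adjusted p = 2.00e-13) and TBX3 from 17.7 to 323 CPM (log2FC 4.19, SE 0.07, adjusted p = 5.17e-13).

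**Figure D5:**
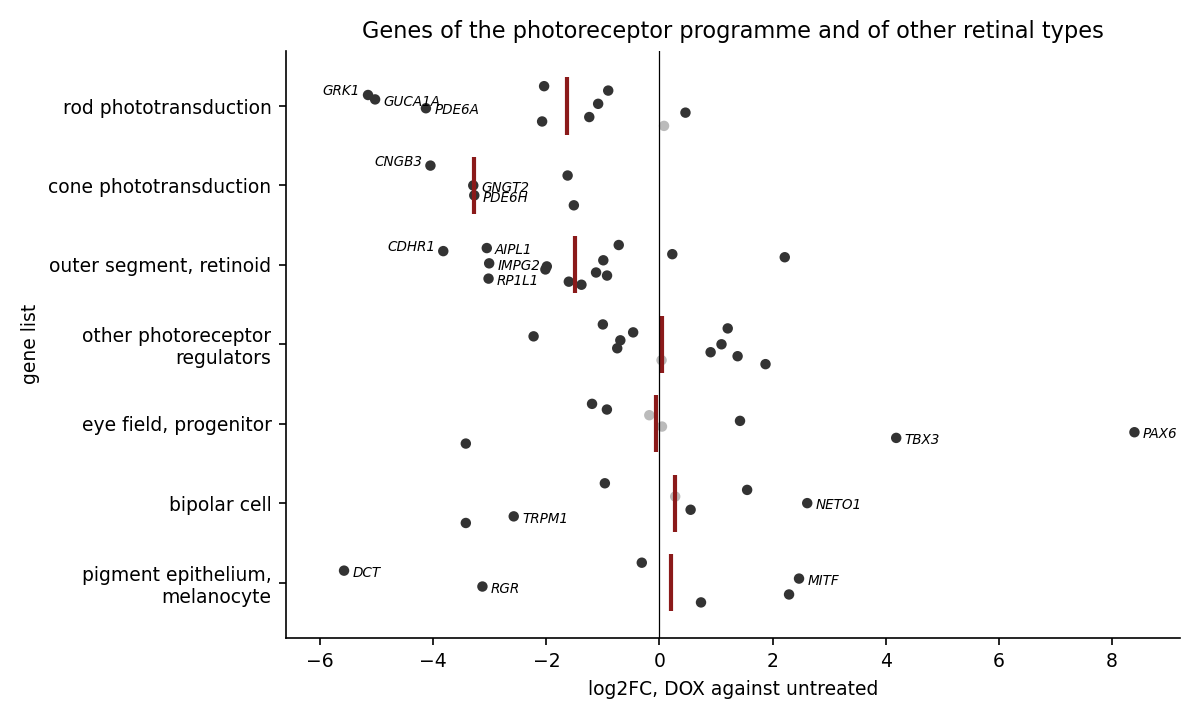
Log2FC with DOX of each tested gene in 7 lists, with called genes in dark and others in light grey and a bar at the median of each list. The medians are -1.64 for rod, -3.27 for cone and -1.49 for outer segment genes, and 0.04, -0.07, 0.28 and 0.21 for the other regulators, the eye field, bipolar cells and pigment epithelium. Through the untreated libraries alone, 2 rod, 3 cone, 3 outer segment and 1 pigment epithelium genes passed the filter and had to be lower. Through the DOX-treated ones alone, 1 outer segment and 1 eye field gene passed. The medians are therefore no measure of how the lists differ.

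Profiles like those of the factors were looked for among all tested protein-coding genes by the root mean square difference of log2(CPM + 0.5) over the 8 libraries, after the untreated mean of each gene was subtracted. Nearest to OTX2 were GRB2, IQCD and JAM3, at 0.0281, 0.0301 and 0.0352. Nearest to CRX were SLC13A4, SPARCL1 and SLC38A5, at 0.0498, 0.0591 and 0.0637. For NRL they were ZDHHC22, PDE6H and PCDH8, at 0.103, 0.108 and 0.117, which puts the cone gene PDE6H close to the rod factor. For RXRG they were LMO1 and COL2A1, at 0.178 and 0.189. For RORB they were SPRY3, SKIL and ACSL4, at 0.0609, 0.0671 and 0.0780, and for MEF2C ZNF280C, KLF12 and CD2AP, at 0.0682, 0.0850 and 0.0875. With 2 groups of libraries, such likeness rests mostly on the size of the change in log2(CPM + 0.5). The added 0.5 makes this change smaller than the fitted log2FC for genes at low levels. LMO1 and COL2A1 had a fitted log2FC of -3.27 (SE 0.14) and -2.71 (SE 0.08), against -5.88 for RXRG.

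Markers of other cell types were read beside these results. Of 7 fibroblast markers, 2 were tested and 1 was higher (PDGFRB), and their summed level ran from 35.3 to 37.6 CPM without and from 55.7 to 69.1 CPM with DOX. COL1A1, the other marker tested, had a log2FC of 0.09 and was not called. It was called with scaling to library size and in 1 of the 8 fits with a library left out. Of the markers below the filter, DCN and COL1A2 stood at 0.601 and 0.223 CPM without and 0.0117 and 0.0110 CPM with DOX. None of 6 blood cell markers passed the filter, with sums from 0.583 to 0.697 and from 0.414 to 0.723 CPM, and HBB was at 0. Of 8 markers of Müller glia and astrocytes, 3 were tested and 3 were lower (GLUL, SLC1A3 and VIM), with sums from 5819.8 to 6137 and from 2443 to 2565 CPM. GLUL at 4788 and VIM at 1176 CPM made up most of the untreated sum, and RLBP1, AQP4 and GFAP were below 1 CPM on average in both groups. The part of other cell types in the changes of the factors was not tested. The mitochondrial share of counts ran from 4.73% to 5.13% without and from 5.70% to 5.95% with DOX, and its part was not tested.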

How the data were processed

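PolyA+ RNA of 4 untreated and 4 DOX-treated independent biological replicates was sequenced by the authors as paired-end stranded libraries. Per the labels and the methods, Trim Galore, STAR and RSEM were used with GRCh38 and GENCODE release 32. The authors deposited expected counts (estimated counts) per gene from RSEM, 1 library per file and not normalized. Whether counting was stranded is not given in the sources used here.

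For the tests, the deposited expected counts were taken as whole numbers after rounding. A gene was tested where it exceeded 1 CPM in 4 or more of 8 libraries, with edgeR 4.0.16 in R 4.3.3 (TMM, quasi-likelihood test, no covariates, Benjamini-Hochberg adjustment). SE is the size of the log2FC over the square root of the F statistic. Symbols, coordinates and exon lengths come from GENCODE 29 on GRCh38, which held 99.3% of the genes tested, and promoters from RefSeq. A level of 3 counts (0.0581 to 0.0748 CPM on the TMM scale) was taken as the limit of detection. Intervals of count ratios are exact conditional binomial intervals at 95%, and intervals and limits cover counting error only.

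The members and lists were chosen with earlier results of these data known. Named genes are the members, MYC, CAD and NCL, in each list up to 3 genes of largest change among those differentially expressed without overlap, paralogs, the 3 nearest profiles, and genes that overlap a member. Other genes named from the lists (PDE6B, FSCN2, EYS, THRB, SAMD11, PIAS3, RPE65, NPR3, PDGFRB, COL1A1, GLUL, SLC1A3, VIM, KCNA1, SLC24A2, IMPG1, MAK, POU4F1 and the markers and opsins named as low) were chosen after their values were seen. Some genes that the rule names are not reported here. Alternatives were DESeq2 size factors, library size only, the Wald test of DESeq2 1.42.0, other filters, the replicate number as a block, each library left out, and the longest transcript as gene length. The fits were tested on simulated data with changes planted in a small part of the genes, equally in both directions. These simulated data do not test the scaling where most genes change. Python 3.11.15, numpy 2.4.6, pandas 2.3.3, scipy 1.17.1 and matplotlib 3.10.9 were used.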

Additional observations from a re-analysis of the deposited data

Results flagged for a closer look

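For each of the 9 factors and each group, the gap between an extreme library and its neighbour was divided by the range of the group and set against Dixon's 95% limit. Of 18 groups of 4 libraries, 1 exceeded the limit, where chance gives about 0.9. In the DOX-treated libraries, RAX2 stood at 0 CPM in replicate 2 and at 0.0195, 0.0197 and 0.0220 CPM in the others, a ratio of 0.888. These values are 0 counts against 1 count in each of the others.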

How the results depend on the processing

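The log2FC of the 6 tested factors kept its direction and its side of an adjusted p of 0.05 in 83 of 83 values over 14 alternatives. RXRG has no value with the filter that removed it. The factors were chosen for their changes in this contrast. These values and the counts of factors below are therefore a description only. With each library left out in turn it ran from -1.06 to -1.03 for OTX2, from -2.62 to -2.56 for CRX, from -3.61 to -3.48 for NRL, from -6.45 to -5.59 for RXRG, from 0.62 to 0.82 for RORB and from 2.41 to 2.61 for MEF2C. The number of differentially expressed genes, 1084 here, was 2097 with no filter on low counts and 562 with more than 1 CPM asked for in more than 4 libraries. The latter filter removed RXRG and left 3 differentially expressed factors. With no filter, 9 of the 9 factors had an adjusted p below 0.05, beside 41.3% of the 36881 genes then fitted. Scaling to library size only shifted the log2FC of the genes tested by a median of 0.13. It moved the share of calls that were higher with DOX from 50.3% to 60.3%. Of the list counts under alternatives, 390 of 420 stayed within 1.5 times their value. With the longest transcript as length, 11 of 18 levels per kb moved by more than 1 SD, so ratios of levels between genes depend on the length used. Without DOX, OTX2 then stood at 349.4 and NRL at 13.6 CPM per kb. With DOX they stood at 169.9 and 1.16 CPM per kb. Depth limits NR2E3, RAX2 and, with DOX, RXRG.

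Equal replicate numbers gave no clear pairing of the libraries. Deviations from the group means correlated across genes at r of 0.20, 0.18, 0.31 and -0.24 in same-numbered pairs 1 to 4. The mean r of the other pairs was -0.04. Of 4 untreated libraries, 1 correlated best with its own number. So few pairs cannot settle whether the libraries were paired. With the replicate number as a block, 1085 genes were differentially expressed and 11805 had an adjusted p below 0.05, with 4 and 6 factors among them.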

Other observations

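Markers of the other retinal cell types changed in both directions with DOX. Of 12 bipolar cell markers, 7 were tested, 3 were higher, 3 lower and 1 was not called. The called markers include NETO1 (log2FC 2.61, SE 0.10, adjusted p = 3.88e-10) and TRPM1, the channel of ON bipolar cells (log2FC -2.58, SE 0.09, adjusted p = 3.50e-10). Of 12 markers of amacrine, horizontal and ganglion cells, 4 were tested, 3 were higher and 1 lower. The neurofilament gene NEFL rose from 44.4 to 285 CPM (log2FC 2.68, SE 0.04, adjusted p = 5.06e-13) and the glycine transporter gene SLC6A9 fell from 149 to 34.5 CPM (log2FC -2.11, SE 0.06, adjusted p = 2.97e-11). Of 10 markers of pigment epithelium and melanocytes, 6 were tested, 3 were higher and 3 lower. MITF, the master gene of pigment cells, rose (log2FC 2.47, SE 0.07, adjusted p = 3.82e-11), as did RPE65, the retinoid isomerase (log2FC 2.29, SE 0.06, adjusted p = 3.19e-11), while DCT fell (log2FC -5.58, SE 0.09, adjusted p = 3.84e-13), as did RGR (log2FC -3.13, SE 0.18, adjusted p = 1.73e-08).

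Of 9 markers of Group 3 medulloblastoma, 9 were tested, 7 were lower and 2 (MYC and EYS) higher. The call of EYS was lost in 7 of the 8 fits with a library left out. The untreated and DOX-treated libraries overlapped for MYC, whose counts may include reads from the transgene. OTX2, CRX and NRL, which were chosen on this contrast, are 3 of those lower, and without them 4 of 6 were lower and 2 higher, with a median log2FC of -1.74. NPR3 fell from 609.5 to 103 CPM (log2FC -2.57, SE 0.07, adjusted p = 3.50e-11) and IMPG2 from 473 to 58.7 CPM (log2FC -3.01, SE 0.10, adjusted p = 1.71e-10). Of 6 Group 4 markers, 2 were tested and 2 were higher, among them UNC5D (log2FC 3.52, SE 0.13, adjusted p = 3.30e-10), while KCNA1 had 0 counts. Of 10 markers of the SHH and WNT subgroups, 4 were tested, 3 were higher and 1 lower. PDLIM3 (log2FC 3.04, SE 0.05, adjusted p = 4.47e-13) and SFRP1 (log2FC 2.96, SE 0.26, adjusted p = 8.39e-07) rose. RGR passed the filter on low counts through the untreated libraries alone, and POU4F1, UNC5D and SFRP1 through the DOX-treated ones, so that no other direction was open to them.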
